A study of Bos taurus with 72 samples.

Results

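The response of bovine mammary epithelial cells (BMECs) to the loss of all essential amino acids (EAA) was read from the 12 libraries of the 2 control media among the 72 libraries of the series. Members were taken by medium, as the 6 libraries of complete medium (POS) and the 6 libraries of medium without any EAA (NEG). All cells were wild-type primary BMECs from mammary tissue of healthy cows, had been passaged 6 times, went without serum overnight, and were then held for 6 h in DMEM-F12 (POS) or in DMEM-F12 lacking every EAA (NEG). The remaining 60 libraries came from NEG supplemented with a single EAA, for 10 EAA, and are used below only as a reference for levels. The study calls the 6 replicates of a medium biological replicates, but no source used here says whether they came from separate cows or cultures, so p-values measure only the spread between these libraries. The sample labels name 6-well plates and a SMARTER kit. The study names other plates in its methods and another kit in its background section, and both media share them. Epithelial identity could not be checked on these values, because the gene identifiers in the table carry no symbols and none of them was found in the reference table of bovine genes.

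Cells sense the supply of EAA by 2 well-described routes. When an EAA runs short, uncharged tRNA activates the kinase GCN2, which slows general translation and raises the transcription factor ATF4 and its targets for amino acid synthesis, transport and tRNA charging. The kinase complex mTORC1 is active on the lysosome when amino acids are plentiful and promotes translation, ribosome production and lipid synthesis. In mammary epithelium EAA are also the building blocks of caseins and whey proteins. Which genes of these pathways moved is not given here, since members cannot be found without symbols. The response is therefore described by identifiers, ranks, expression levels and gene lengths.

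Reads on genes were similar in number in both media and 2 libraries stood apart. Reads on genes, recovered from the deposited FPKM, numbered 15907885 to 17910737 in NEG (median 16534948) and 13575591 to 17234161 in POS (median 15861560), and the media did not differ beyond the spread (two-sided exact permutation test over 924 splits, p = 0.23). POS_4 had the fewest reads on genes and 13537 genes above 0, against 17034 to 17743 in the other POS libraries. Its number of clean reads, as listed by the study, lay within the range of the other POS libraries. NEG_2 had the fewest genes above 0 in NEG (16596). The counts of calls over all genes and over well-expressed genes are therefore also given without POS_4 and NEG_2.

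Many genes differed between the media, and the larger changes were mostly genes lower in complete medium. FPKM are the fragments per kilobase of transcript, scaled to the depth of the library. Of 12121 genes whose mean FPKM was 1 or more, 3969 had a Benjamini-Hochberg adjusted p under 0.05 by limma on log2(FPKM + 1), which is 32.7% of the genes tested. Of these, 1730 (14.3%) were higher in POS and 2239 (18.5%) were lower in POS, so higher under starvation. Without POS_4 and NEG_2, 5847 genes (48.2%) were called, 2716 (22.4%) higher and 3131 (25.8%) lower. Sample weights in limma, which give less weight to libraries far from their group, raised the count to 8554 (70.6%), 3898 (32.2%) higher and 4656 (38.4%) lower. Of the 3969 genes, 3850 were called in the same direction without these libraries. The split depends on the scaling of the libraries. With scaling by total reads, which moved the median log2 fold change of all genes from -0.06 to 0.06, 59.2% of the calls were higher in POS, against 43.6% with the deposited FPKM.

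The study calls a gene differentially expressed (DEG) at p below 0.05 and a change of more than 1 in size on the log2 scale. It does not say whether p was adjusted, and p is taken here before adjustment. Changes past these limits leaned further to genes lower in POS. They numbered 1259 (10.4% of the genes tested), of which 337 (2.78%) were higher and 922 (7.61%) lower. The rises depend on the processing, with 518 higher and 671 lower under scaling by total reads, 555 and 1213 with a pseudocount of 0.1, and 564 and 1244 by voom on the recovered reads. Without POS_4 and NEG_2 there were 787 DEG (6.49%), 233 (1.92%) higher and 554 (4.57%) lower. The FPKM ranges of the media did not overlap at all in 2676 genes (22.1%), 1173 (9.68%) higher and 1503 (12.4%) lower in POS, and in 4363 (36.0%) without POS_4 and NEG_2, 2023 (16.7%) higher and 2340 (19.3%) lower. In bulk RNA, fewer cells expressing a gene and less RNA per cell cannot be told apart.

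The falls in complete medium reached further than the rises. Among the 1730 genes higher in POS the median log2 fold change was 0.70 (quartiles 0.53 and 0.91), 314 exceeded 1, 22 exceeded 2 and none exceeded 3. Among the 2239 genes lower in POS the median was -0.85 (quartiles -1.17 and -0.62), 835 were below -1, 99 below -2 and 17 below -3. Fold changes on log2(FPKM + 1) understate the change of genes with low FPKM. The median rise was 0.56 and the median fall -0.70 without POS_4 and NEG_2. Of the 2716 rises called without these libraries 230 exceeded 1, 16 exceeded 2 and none exceeded 3, and of the 3131 falls 549 were below -1, 78 below -2 and 13 below -3.

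**Figure D1:**
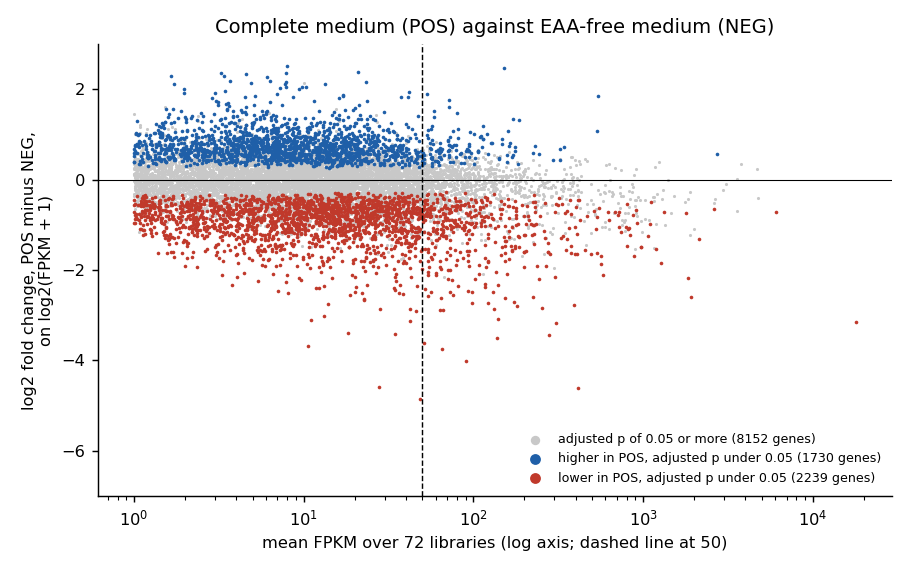
Each point is a gene, with its mean FPKM over 72 libraries on a log axis (x) and its log2 fold change of POS minus NEG on log2(FPKM + 1) (y); colours mark the 1730 genes higher and the 2239 lower in POS at an adjusted p under 0.05 by limma. Right of the dashed line at an FPKM of 50, 122 genes were higher and 411 lower in POS; over all levels, 17 called changes exceed 3 in size and all of them lie below 0.

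Genes read in 1 medium and listed at 0 throughout the other were rare. Of 21313 genes above 0 in at least 1 of the 12 libraries, 18 were above 0 in every NEG library and listed at 0 in every POS library, and 2 showed the reverse. The highest mean FPKM of the 18 genes in NEG was 2.35, and 1 of them passed the filter on mean FPKM. A zero in a single library was more frequent. Among the 2239 genes lower in POS, 214 were at 0 in at least 1 POS library, and in 184 of these POS_4 was the only such library.

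Well-expressed genes (a mean FPKM over the 72 libraries of 50 or more) were called about as often as the rest but mostly in the falling direction. Of 1560 such genes, 533 (34.2%) had an adjusted p under 0.05, against 32.5% of the 10561 genes below that level. Higher in POS were 122 (7.82%, against 15.2% of the genes below that level), and lower were 411 (26.3%, against 17.3%). Most of the 72 libraries are not POS, so a mean over them places genes lower in POS in this class more readily than genes higher in POS. With the mean taken over the 12 libraries, an alternative chosen after the data were seen, 1636 genes were well-expressed, of which 150 (9.17%, against 15.1% of the genes below that level) were higher and 390 (23.8%, against 17.6%) lower in POS. Scaling by total reads gave 215 (13.8%, against 20.2% of all genes) higher and 310 (19.9%, against 13.9%) lower well-expressed genes. Without POS_4 and NEG_2, 800 (51.3%, against 48.2% of all genes) were called, 250 (16.0%, against 22.4%) higher and 550 (35.3%, against 25.8%) lower. Sample weights gave 1182 (75.8%, against 70.6% of all genes), 374 (24.0%, against 32.2%) higher and 808 (51.8%, against 38.4%) lower. The falls were large for abundant transcripts: 210 of the 411 were below -1, 49 below -2 and 9 below -3. Of the 122 rises, 21 exceeded 1 and 1 exceeded 2. With POS_4 and NEG_2 left out, 160 of 550 falls were below -1, 38 below -2 and 8 below -3, and 15 of 250 rises exceeded 1 and 1 exceeded 2.

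Genes lower in POS were most frequent at the highest levels. In 5 classes of equal size by mean FPKM, the share of genes lower in POS was 16.2% in the lowest class (up to an FPKM of 3.49), 16.6% and 18.7% in the third and the fourth, and 25.8% in the highest (33.5 to 18054). The share of genes higher in POS was 19.4% in the second class and 8.62% in the highest. Median log2 fold changes were -0.01, 0.04, -0.02, -0.08 and -0.26 from the lowest to the highest class. With scaling by total reads they were 0.07, 0.15, 0.10, 0.06 and -0.12, so the sign turned in 3 classes and the highest class stayed the lowest. Without POS_4 and NEG_2 the highest class had a median of -0.13, with 35.0% lower and 16.7% higher. In classes by the mean over the 12 libraries, the highest had a median of -0.25, with 23.3% lower and 9.69% higher. Removal of the trend on gene length within each library, described below, was chosen after the data were seen. With it the medians by mean FPKM were -0.03, 0.01, -0.04, -0.07 and -0.17, and the highest class had 253 genes higher and 617 lower.

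To rank single genes, those with an adjusted p under 0.05, ranges that did not overlap and an FPKM above 0 in all 12 libraries were ordered by the size of the log2 fold change. These were 2361 genes (19.5% of the genes tested), 1096 rises (9.04%) and 1265 falls (10.4%). The well-expressed among them were 378 (24.2% of the well-expressed genes), with 77 rises (4.94%) and 301 falls (19.3%). The same conditions without POS_4 and NEG_2 held for 4272 of the 12121 genes tested (73.1% of the 5847 called there), 1975 rises and 2297 falls. Among the 1560 well-expressed genes they held for 635 (40.7%), 196 rises and 439 falls. The 2 largest changes in each direction among the well-expressed genes are given by identifier with every library, and further genes by their rank and length.

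ENSBTAG00000011839, 5151 bp long, was the largest well-expressed rise. Its FPKM in NEG_1 to NEG_6 was 93.6, 110, 96.3, 91.9, 88.3 and 93.1, and in POS_1 to POS_6 it was 436, 447, 490, 819, 539 and 558. The media stayed far apart, and POS_4 was the highest library of all. The rise was 2.48 on the log2 scale (limma, standard error 0.15, adjusted p = 2.4e-07) and 2.40 without POS_4 and NEG_2. ENSBTAG00000010564, 3234 bp long, had an FPKM of 39.5, 32.4, 34.1, 39.0, 38.0 and 35.1 in NEG and of 91.4, 109, 124, 248, 142 and 149 in POS. Again POS_4 was far above the other POS libraries, while the media stayed apart without it. This is a rise of 1.89 on the log2 scale (limma, standard error 0.20, adjusted p = 1.7e-05), and 1.68 without POS_4 and NEG_2.

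ENSBTAG00000017007, 1972 bp long, was the most uniform of the large falls. Its FPKM in NEG_1 to NEG_6 was 125, 119, 110, 112, 106 and 102, and in POS_1 to POS_6 it was 5.99, 6.98, 6.50, 5.23, 6.18 and 5.49. Neither NEG_2 nor POS_4 stood out, and the log2 change of -4.00 (limma, standard error 0.10, adjusted p = 6.7e-11) was -3.95 without them. A median of 3418 reads per library in NEG and 204 in POS lay behind these values. ENSBTAG00000001595, 453 bp long, fell further but with more spread. Its FPKM was 503, 1050, 491, 395, 499 and 515 in NEG and 55.9, 14.8, 28.3, 6.21, 27.2 and 22.4 in POS. NEG_2 was the highest and POS_4 the lowest library, and the log2 change of -4.61 (limma, standard error 0.41, adjusted p = 3.8e-06) became -4.10 without these libraries.

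Further well-expressed rises were smaller and several were as tight. The rise of rank 3 (2317 bp) was abundant, with an FPKM of 434 to 578 in NEG (median 449) and 1555 to 1771 in POS (median 1709) and a log2 fold change of 1.86 (adjusted p = 3.3e-07 by limma). In this gene POS_4 was the lowest POS library and NEG_2 the highest NEG library, and the log2 fold change was 1.94 without them. The rise of rank 5 (1601 bp) went from 51.9 to 65.7 in NEG to 155 to 202 in POS, a log2 fold change of 1.60. That of rank 7 (3031 bp) had 48.4 to 65.7 in NEG and 131 to 164 in POS, a log2 fold change of 1.39. For ranks 6 and 8 (4593 and 2054 bp) the POS ranges of 129 to 344 and 225 to 620 were widened by POS_4, and without POS_4 and NEG_2 the log2 fold changes were 1.29 and 1.25.

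The rise of rank 4 was a gene of 56 bp and rested on few reads. Its FPKM was 5.29 to 49.8 in NEG and 52.9 to 371 in POS, with a median of 30 reads per library in NEG and 71 in POS. The log2 fold change of 1.76 (adjusted p = 0.024 by limma) was 0.94 without POS_4 and NEG_2. After removal of the trend on gene length within each library, it was 1.19 (adjusted p = 0.11 by limma), so the call was lost.

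Falls of well-expressed genes were 8.92-fold or more down to rank 8 on the scale of FPKM + 1. The falls of ranks 3 and 4 (1888 and 1857 bp) went from 72.3 to 106 and 68.0 to 90.2 FPKM in NEG to 1.45 to 9.89 and 1.55 to 8.75 in POS, with log2 fold changes of -3.75 and -3.61. That of rank 5 (1236 bp) went from 160 to 241 in NEG to 6.6 to 33.2 in POS, a log2 fold change of -3.50. The fall of rank 6 (1287 bp) had 326 to 592 in NEG and 15.1 to 51.1 in POS (-3.44), and that of rank 7 (1656 bp) had 376 to 475 in NEG and 40.8 to 65.2 in POS (-3.16). POS_4 was the lowest POS library in ranks 3 to 6. Without POS_4 and NEG_2 the log2 fold changes of ranks 3 to 7 were -3.40, -3.30, -3.32, -3.08 and -3.19, each with an adjusted p under 0.05 by limma.

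The fall of rank 8, a gene of 55 bp, had the highest mean FPKM over the 72 libraries of the genes tested. Its FPKM was 42766, 28922, 35829, 29743, 30956 and 36636 in NEG and 18629, 5502, 4467, 609, 2983 and 3566 in POS. POS_1 and POS_4 lay far from the other POS libraries on opposite sides, and the log2 fold change of -3.16 (adjusted p = 0.0017 by limma) was -2.67 without POS_4 and NEG_2. A length this short makes the FPKM large for a given number of reads, of which the median per library was 29806 in NEG and 3917 in POS.

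**Figure D2:**
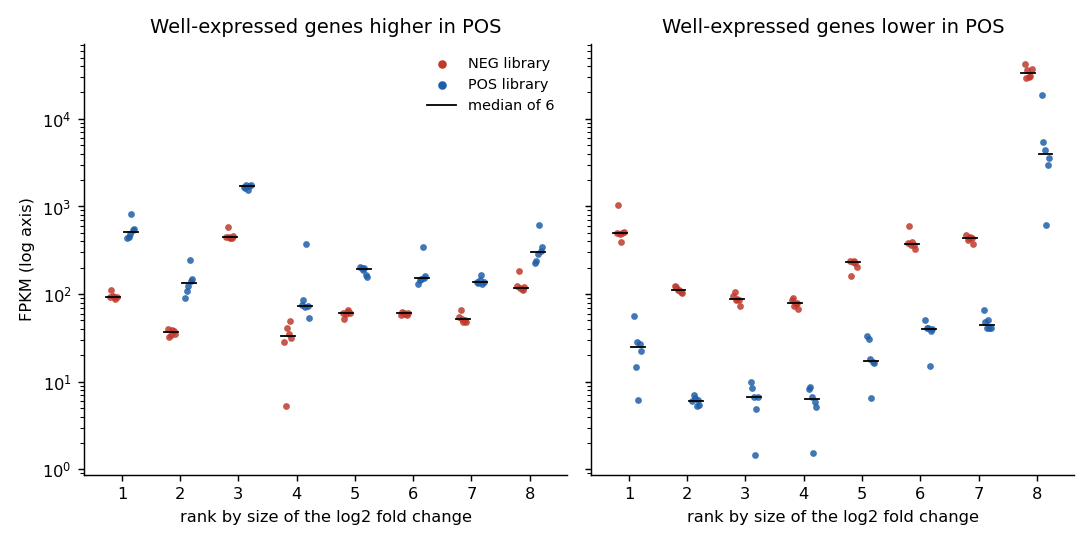
FPKM on a log axis in each of the 6 NEG and 6 POS libraries for the 8 well-expressed genes with the largest rise (left) and fall (right) in POS, in order of rank, with a line at the median of 6. The media do not overlap in any of the 16 genes, a condition of the ranking, and single POS libraries lie far from the others in several, as for the 56 bp gene at rank 4 on the left, whose highest POS value is 371.

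Over all levels, the 10 genes that followed the 2 largest changes were looked at in each direction. By the mean over 72 libraries none of the 10 rises was well-expressed, against 12.9% of all genes tested, and by the mean over the 12 libraries 2 were. Of these rises 4 were shorter than 400 bp, against 5.59% of all genes tested. Their log2 fold changes ran from 2.0 to 2.39 (1.41 to 2.36 without POS_4 and NEG_2). In 8 of the 10, POS_4 was the highest POS library. The exceptions were a gene of 2547 bp, with 13.8 to 17.8 FPKM in NEG and 67.5 to 124 in POS, and a gene of 1927 bp, with at most 2.73 in NEG and 7.52 to 9.90 in POS. Of the 10 falls, 7 were well-expressed by the mean over 72 libraries and 5 by the mean over 12, and 1 was shorter than 400 bp. Their log2 fold changes ran from -3.13 to -4.00 (-2.67 to -3.95 without POS_4 and NEG_2). POS_4 was the lowest POS library in 8 of them. All 20 genes kept an adjusted p under 0.05 by limma without POS_4 and NEG_2.

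A few libraries held many of the extremes in the whole ranking. Among the 77 well-expressed rises POS_4 was the highest POS library in 58 and POS_1 the lowest in 48. Among the 301 well-expressed falls POS_4 was the lowest POS library in 214 and POS_1 the highest in 151. NEG_2 was the highest NEG library in 202 of these falls. Over all 1560 well-expressed genes, called or not, POS_4 was the highest POS library in 519 and the lowest in 816, POS_1 the highest in 676 and the lowest in 368, and NEG_2 the highest NEG library in 1095 and the lowest in 330. NEG_2 was the lowest NEG library in 36 of the 77 rises. What set these libraries apart was not tested.

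The genes called made up a large and shifting part of the reads. The 2239 genes lower in POS took 28.8% ± 0.302 of the reads on genes in NEG (SD, n = 6) and 16.2% ± 2.33 in POS. Their share was between 28.4% and 29.2% in NEG, and in POS it was between 15.8% and 18.7% apart from POS_4 at 12.0%. The 1730 genes higher in POS took 8.26% ± 0.655 in NEG and 16.4% ± 3.17 in POS, with 22.2% in POS_4 and 12.9% to 16.8% in the other POS libraries. These genes were chosen by their change between the same libraries, so the shares describe the size of the response and are not a test of it.

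Well-expressed genes carried most of the share that was lower in POS. The 411 well-expressed falls alone took 21.6% ± 0.370 in NEG and 11.9% ± 1.63 in POS. The 122 well-expressed rises took 3.52% ± 0.0989 in NEG and 7.04% ± 1.18 in POS. All 1560 well-expressed genes together took 64.4% ± 2.26 in NEG and 59.4% ± 2.04 in POS, or 63.5% ± 0.316 and 60.2% ± 0.944 without NEG_2 and POS_4.

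**Figure D3:**
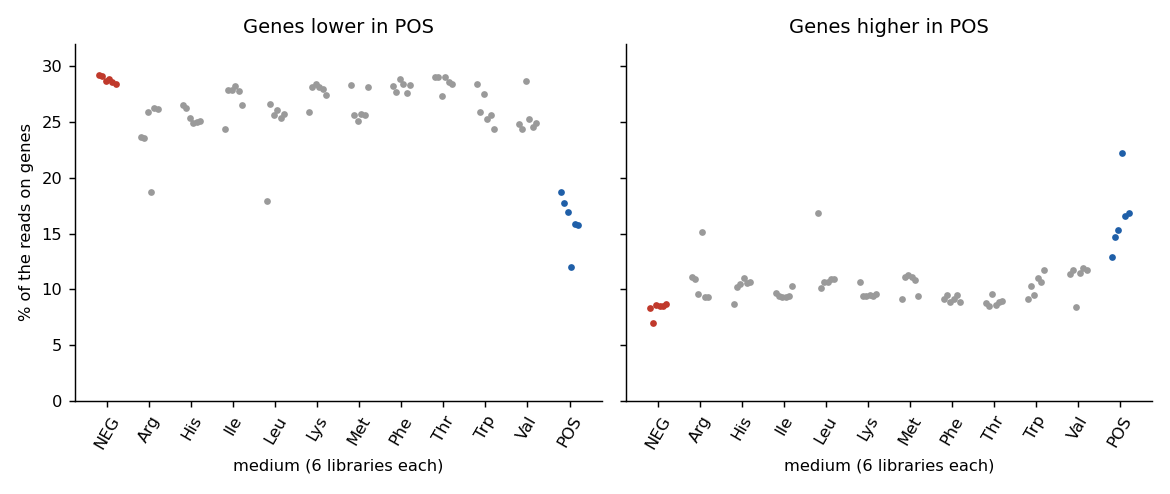
Share of the reads on genes (percent, y) taken by the 2239 genes lower in POS (left) and the 1730 genes higher in POS (right) in each of the 6 libraries of the 12 media (x). NEG libraries lie at 28.4% to 29.2% on the left and POS libraries at 12.0% to 18.7%, with the single-EAA libraries between 17.9% and 29.0%.

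By their share of the reads, the response genes lay nearer to NEG than to POS in most single-EAA libraries, while single genes varied. These media share the NEG controls with the comparison that chose the genes, so their values are given as a description. The genes lower in POS took 17.9% to 29.0% of the reads in the 60 single-EAA libraries with a median of 26.3%, and those higher in POS took 8.45% to 16.8% with a median of 9.66%. Leu_1, at 17.9% and 16.8%, and Arg_4, at 18.7% and 15.1%, lay within the ranges of POS. Both stood apart from their own medium, where the other Leu libraries had 25.4% to 26.6% and 10.1% to 10.9%, and the other Arg libraries had 23.6% to 26.3% and 9.30% to 11.1%. In the read statistics of the study, Leu_1 and Arg_4 also had the lowest mapping efficiencies of the 72 libraries. Whether this bears on their levels was not tested.

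For ENSBTAG00000011839 the single-EAA libraries ranged from 78.6 to 264 FPKM with a median of 111, and none reached the lowest POS library. Its median by medium was highest with arginine (147) and lowest with threonine (84.4), against 93.3 in NEG and 515 in POS. The first place of arginine rests on Arg_4 (264), and methionine was next at 135. ENSBTAG00000010564 ranged from 29.9 to 90.7 with a median of 45.9, and again none reached POS. The highest library of this gene, Leu_1, was just under the lowest POS library at 91.4. The rise of rank 3 ranged from 322 to 734, less than the 1555 of the lowest POS library, and its medians by medium ran from 368 with methionine to 515 with isoleucine, on both sides of 449 in NEG.

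ENSBTAG00000017007 ranged from 42.4 to 131 FPKM in the single-EAA libraries with a median of 96.3, and none came down to the highest POS library at 6.98. Its lowest median was 73.3, with arginine, and its highest 123, with lysine, against 111 in NEG. The fall of rank 7 had its lowest median with arginine as well (191, against 438 in NEG and 44.8 in POS). ENSBTAG00000001595 ranged from 0 to 916 with a median of 403. Leu_1, at 0, and Arg_4, at 29.3, came down to POS, while the other Leu libraries had 384 to 726 and the other Arg libraries 452 to 895. With POS_1 left out, the highest POS library of this gene was at 28.3, just under Arg_4. Other genes of the ranking had single-EAA levels near POS. The 55 bp fall of rank 8 had a single-EAA median of 5805, and 44 of the 60 libraries were at or below its highest POS library, POS_1. Without POS_1 the highest was 5502, and 28 of the 60 were at or below it. With phenylalanine (median 63843) and threonine (50774) this gene lay above NEG (33392). For the 56 bp rise of rank 4, 40 of the 60 reached the lowest POS library. The fall of rank 11 (1314 bp) had a single-EAA median of 33.3 FPKM, against 235 to 331 in NEG, and 45 of the 60 libraries were at or below POS_1, its highest POS library, at 230. Without POS_1 the highest was 61.1, and 42 of the 60 were at or below it.

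**Figure D4:**
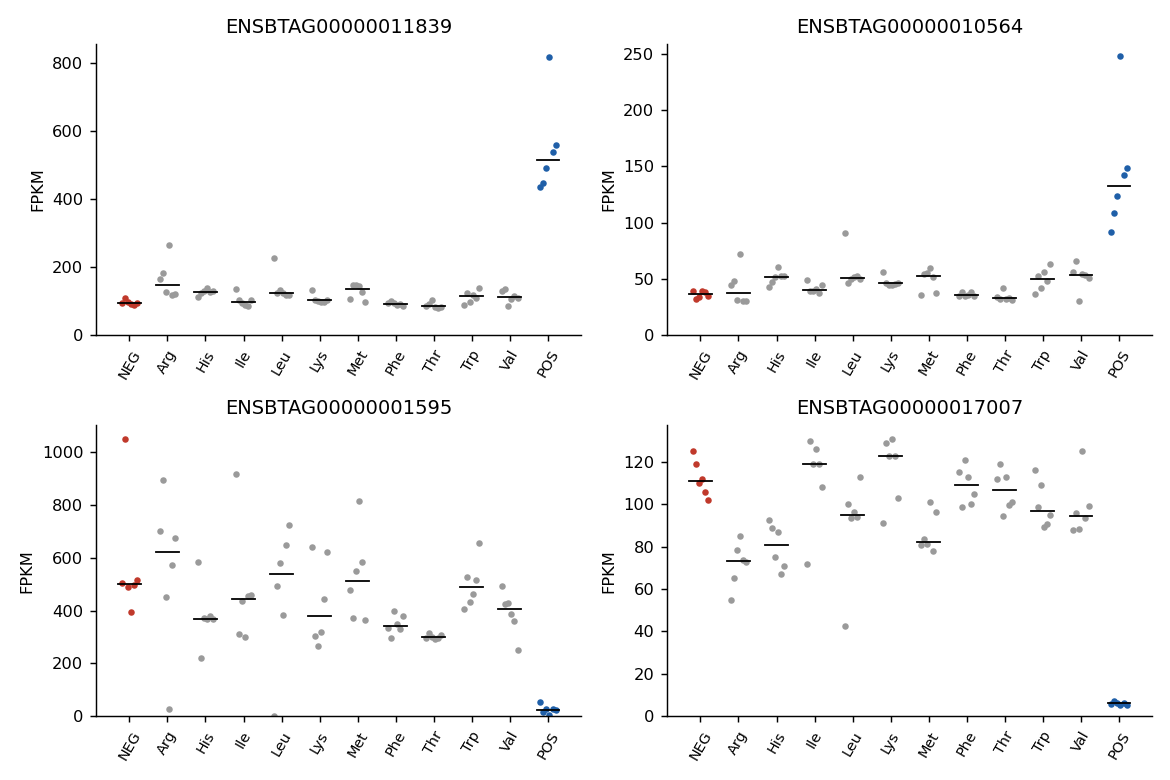
FPKM (y) of the 4 genes given by identifier in each library of NEG (red), of the 10 media with a single EAA (grey) and of POS (blue), with a line at the median of the 6 libraries of a medium. No library of another medium reaches the POS range in ENSBTAG00000011839, ENSBTAG00000010564 and ENSBTAG00000017007, though Leu_1 lies just under it in ENSBTAG00000010564. In ENSBTAG00000001595 only Leu_1 and Arg_4 come down to the POS range or below it.

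With all 60 single-EAA libraries counted, a level out of reach of them all was the exception among the ranked well-expressed genes. It was found for 13 of the 77 rises (16.9%) and for 77 of the 301 falls (25.6%). Over the ranked genes of all levels it was found for 140 of 1096 rises (12.8%) and 205 of 1265 falls (16.2%). POS_1 set the limit of POS in 48 of the 77 rises and 151 of the 301 falls, and with POS_1 left out the counts were 13 and 78. In the median rise 10 of the 60 single-EAA libraries reached the POS range or went beyond it, and in the median fall 4 did. With POS_1 left out of the limit these were 6 and 3. Leu_1 and Arg_4, which stood apart from their own media, were kept in all of these counts. In the well-expressed falls of ranks 3, 5 and 10 the 1 library that came down to POS was Leu_1. In the well-expressed rises of ranks 11 and 12 the 1 library that reached POS was Arg_4. Counts without Leu_1 and Arg_4 were not made.

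Gene length moved with the direction of the calls. In 5 classes of equal size by length, the median log2 fold change rose from -0.27 in genes of 12 to 1232 bp, over -0.22, -0.11 and 0.02, to 0.19 in genes of 3900 to 38086 bp. The share of genes higher in POS went from 7.71% in the shortest to 24.1% in the longest class, and the share lower was 18.7% in the shortest, 24.6% in the second and 10.7% in the longest. Without POS_4 and NEG_2 the medians ran from -0.11 to 0.09, with 13.6% higher in the shortest and 31.2% in the longest class.

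The trend on length was strongest in the same 2 libraries. Each library was compared with the mean of the NEG libraries other than itself and NEG_2. POS_4 had a median difference of -0.87 in the shortest and 0.30 in the longest class, and NEG_2 had 0.48 and -0.39. The other NEG libraries stayed between -0.04 and 0.05 in every class. The other POS libraries lay between -0.24 and 0.18 in the shortest class and between -0.02 and 0.13 in the longest. With the trend on length removed in each library, an alternative chosen after the data were seen, 4038 genes were called, 1710 higher and 2328 lower. The medians of the classes then lay between -0.08 and -0.06, as the removal levels them by design. Of the 39 genes within the first 12 ranks of either direction, over all levels or among well-expressed genes, the 56 bp rise of rank 4 was the one that lost its call there.

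**Figure D5:**
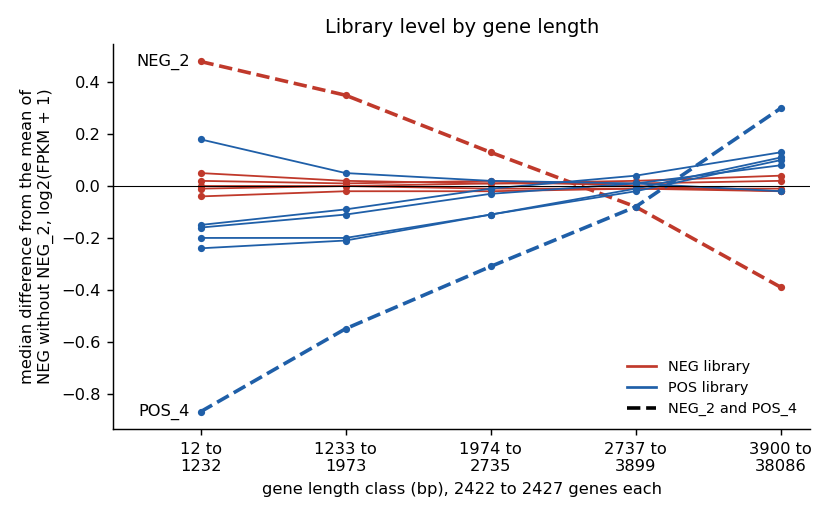
Median difference of each library from the mean of the NEG libraries other than itself and NEG_2 in log2(FPKM + 1) (y) over 5 classes of gene length in bp (x), with NEG_2 and POS_4 dashed. NEG_2 falls from 0.48 to -0.39 and POS_4 climbs from -0.87 to 0.30 from the shortest to the longest class, while the other NEG libraries stay within -0.04 to 0.05.

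Replicates of POS were more spread than those of NEG. The median standard deviation of log2(FPKM + 1) over the genes tested was 0.398 in POS and 0.204 in NEG, and 0.232 and 0.0946 without POS_4 and NEG_2. For well-expressed genes the medians were 0.402 in POS and 0.213 in NEG, and 0.221 and 0.0611 without these libraries. Every pair of replicates within a medium differed by more than the sampling noise (chi-square per gene of 2.82 or more, with POS_5 and POS_6 and then NEG_3 and NEG_5 the closest), which does not tell separate cultures from separate libraries of 1 culture. Running names, which the table gives to loci without an Ensembl identifier, were called in 191 of 462 genes tested (41.3%, against 32.7% of all genes), with 65 (14.1%, against 14.3%) higher and 126 (27.3%, against 18.5%) lower in POS. With POS_4 and NEG_2 left out, 243 were called (52.6%, against 48.2%), 94 (20.3%, against 22.4%) higher and 149 (32.3%, against 25.8%) lower.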

How the data were processed

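RNA-seq of 12 of the 72 libraries was tested, 6 of POS and 6 of NEG, and the 60 single-EAA libraries were used for the filter on level and as a description. They also entered the alternative fit of all 12 treatments. The values deposited by the authors are FPKM of 29550 genes. Per the methods, the authors trimmed and mapped reads (HISAT2), assembled transcripts (StringTie 1.3.3b), computed counts and FPKM with cufflinks and htseq-count, and tested them with the DESeq package. The submitters' processing notes name HISAT2 (2.0.5), featureCounts (1.5.0-p3) and DESeq2 (1.20.0) instead, and which of these made the deposited values is not known here. A genome build is not given in any source used here.

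Reads were recovered as FPKM times the gene length and a factor of the library, and 100.0% of nonzero values lay less than 0.001 from a whole number. Lengths (12 to 38086 bp) come from this recovery and are fixed only up to a divisor for genes with few reads. PCR copies were not marked. Tests used limma (3.58.1, R 4.3.3) on log2(FPKM + 1) with its trend option, two-sided, over 12121 genes whose mean FPKM over 72 libraries was 1 or more. Adjustment was over all genes tested, and a gene is said to be called at an adjusted p under 0.05. Fold changes are POS minus NEG. The fit was tested on simulated data. Tables and figures used Python (3.11.15), numpy (2.4.6), pandas (2.3.3) and matplotlib (3.10.9).

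The comparison, the gene lists and the thresholds were chosen with earlier results of these data known. Genes were ranked by fold change among those with an adjusted p under 0.05, ranges that did not overlap and FPKM above 0 in all 12 libraries. Without symbols the rule named by identifier the 2 largest rises and 2 largest falls with a mean FPKM of at least 50, and other genes go by rank. Identifiers matched 0 of the 37063 rows of the reference table, so 29 planned lists of symbols, markers of cell types included, were not used, and no sequences were at hand. Alternatives were another pseudocount (0.1), other filters, other scalings, a replicate block, sample weights, 1 fit of 12 treatments, voom and libraries left out. Removal of the length trend, genes above 0 in all 12 libraries, the level over the 12 libraries and POS limits without POS_1 were added after the data were seen.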

Additional observations from a re-analysis of the deposited data

Results flagged for a closer look

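In 20 groups of 6 values (reads, genes above 0, shares of reads and the FPKM of the 4 genes given by identifier), Dixon's test at 95% set 7 apart, where chance gives about 1.0, and all 7 were NEG_2 or POS_4. NEG_2 had 6.94% of its reads on the genes higher in POS, against 8.36% to 8.69% in the other NEG libraries, and 3.33% on the well-expressed ones, against 3.53% to 3.61%. NEG_2 was also apart in ENSBTAG00000011839, at 110 FPKM against 88.3 to 96.3, and in ENSBTAG00000001595, at 1050 against 395 to 515. POS_4 had 13537 genes above 0, against 17034 to 17743 in the other POS libraries. Its FPKM was 819 in ENSBTAG00000011839, against 436 to 558, and 248 in ENSBTAG00000010564, against 91.4 to 149.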

How the results depend on the processing

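The 39 ranked genes (the 12 largest changes in each direction, over all levels and among well-expressed genes) kept direction and call in 973 of 975 values from 25 alternatives. The other 2 values belong to the 56 bp rise of rank 4 with the length trend removed, with all libraries and without POS_4 and NEG_2 (log2 fold change 0.36, adjusted p = 0.16 by limma), and none reversed. The counts moved more. Against 3969 called genes, 1259 DEG, 533 well-expressed calls and 2676 genes without overlap, leaving out POS_4 and NEG_2 gave 787 DEG, 800 well-expressed calls and 4363 genes without overlap. With the length trend also removed, chosen after the data were seen, there were 5980 called genes, 765 DEG and 831 well-expressed calls. A single fit of all 12 treatments gave 828 well-expressed calls, and sample weights gave 8554 called genes and 1182 well-expressed calls. With each library left out in turn, called genes ranged from 3054 (without POS_5) to 5042 (without POS_4), DEG from 864 (without POS_4) to 1704 (without POS_1), and well-expressed calls from 397 (without POS_5) to 698 (without POS_1). Causes were not tested. Same-numbered POS and NEG libraries deviated together with r of -0.10 to 0.27, over 0.1 in 1 of 6 pairs, and 1 of 6 POS libraries was closest to its own number. No clear pairing by number was seen, but 6 pairs cannot settle whether cultures or plates were shared. With the replicate number as a block, 3510 genes were called, with 1291 DEG and 487 well-expressed calls. Pseudocount, filters, scalings and voom left the counts of called genes, DEG and well-expressed calls in both directions together within 1.5 times, and genes without overlap were not recounted there. By direction some moved further. DEG higher in POS went from 337 to 555 with a pseudocount of 0.1, 564 with voom and 518 with total reads, which also gave 215 well-expressed rises against 122 and turned the split of calls to 2445 higher and 1684 lower. Genes with few reads are limited by depth.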
